A study of Homo sapiens with 24 samples.

Results

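The effect of adding the BET inhibitor AZD5153 (AZD) to the SYK inhibitor Entospletinib (Ento) was read in DG-75 cells from 6 of the 24 microarrays of the study, 3 arrays of Ento+AZD and 3 arrays of Ento. DG-75 is an established Burkitt lymphoma cell line, and the arrays represent this 1 line in culture. Both groups had received 1 µM Ento for 72 h, and the Ento+AZD group had received 0.01 µM AZD in addition, so that Ento was common to both sides of the comparison. The other arrays hold DG-75 cells with AZD alone or with the solvent DMSO, and the diffuse large B-cell lymphoma line SU-DHL-4 under the same 4 treatments, with 3 arrays for each group. Every gene on the arrays was a member of the comparison, which gave 25575 rows of log2 expression values for 25161 gene symbols.

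BET proteins bind acetylated lysines of histones and other chromatin proteins and bring transcription elongation factors, above all the kinase complex P-TEFb, to promoters and enhancers. AZD is bivalent, which means that 1 molecule occupies both bromodomains of a BET protein. SYK is a tyrosine kinase that relays signals from the B-cell receptor, and its upstream partners in B cells are kinases of the SRC family. Burkitt lymphoma is a fast-dividing tumour of germinal centre B cells in which a chromosome translocation drives the MYC oncogene.

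With all arrays, more transcripts were called lower than higher on addition of AZD. limma was used with Benjamini-Hochberg adjustment over all rows, and genes whose adjusted p was under 0.05 and whose level differed by over 2-fold were counted as called. Of 25575 rows 168 were called (0.657%), 153 lower (0.598%) and 15 higher (0.0587%). The lower genes included the SRC family kinase LCK, the proton channel HVCN1 and the transcription factor MYB, and they included 37 genes of DNA replication, repair and cell division. The higher genes included TXNIP, CEMIP2, UCP2, TP53INP1 and CD69. The median fold change was 2.26 among the lower and 2.21 among the higher genes, and the largest were 4.83-fold and 3.48-fold. All 153 lower and all 15 higher rows had Ento+AZD arrays that did not overlap with the Ento arrays. Over all rows, 13.7% had every Ento+AZD array below every Ento array and 4.65% had every one above.

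These calls rested on the full set of arrays. With Ento replicate 1 or Ento+AZD replicate 1 left out no gene was called, with Ento replicate 2 left out 1 gene, which was higher, and with Ento+AZD replicate 2 left out 4 genes, 2 lower and 2 higher. With all arrays of replicate number 2 left out 0 genes were called lower and 4 higher, so that the excess of lower calls rested on these arrays as well. A fit of the 6 compared arrays alone, which estimates the spread from fewer arrays, called 0 genes as well. The count was 135 without Ento+AZD replicate 3 and rose to 389 without Ento replicate 3. Each of the 168 genes kept its direction and a change over 1.5-fold in all 6 fits that left out 1 of the compared arrays. These genes were called on the same arrays for a change over 2-fold, so this does not test the size of the changes. Ento replicate 3 gave the lowest of the 3 Ento values for 125 of the 153 lower rows (81.7%), and Ento+AZD replicate 1 gave the lowest Ento+AZD value for 95 (62.1%). No gene was called in all 6 fits, and HVCN1 and CEMIP2 were each called in 3.

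**Figure D1:**
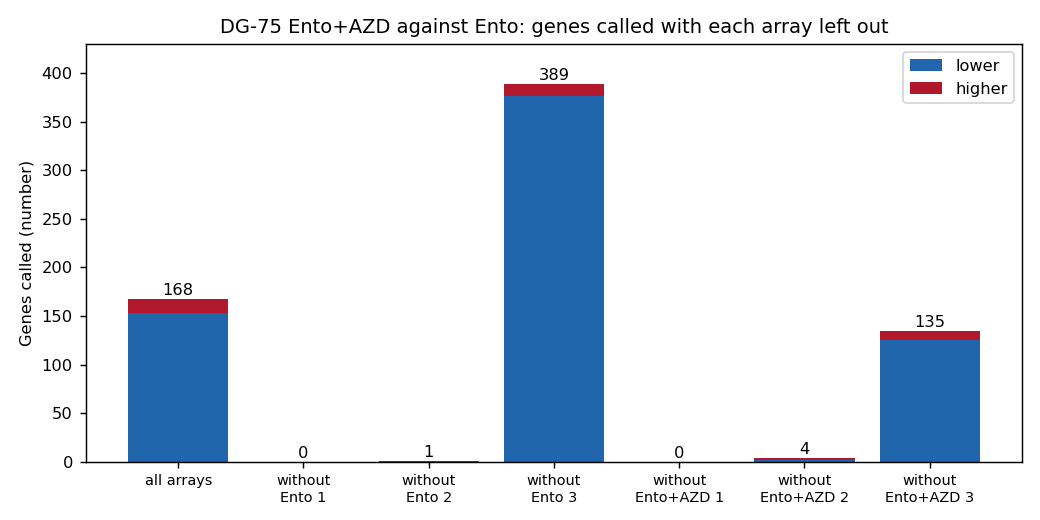
Number of genes called in DG-75 for Ento+AZD against Ento (vertical axis) with all arrays and with each of the 6 compared arrays left out (horizontal axis), split into lower and higher genes. The count lay at 168 with all arrays and between 0 and 389 with 1 array left out.

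The arrays were alike in quality and carried a B-cell profile. Replicate arrays of the 2 groups correlated at 0.9823 to 0.9923, and the median SD of a row between replicates was 0.188 for Ento and 0.211 for Ento+AZD on the log2 scale. Array medians were 5.051 to 5.089 for Ento and 4.971 to 5.027 for Ento+AZD, so that every Ento+AZD median was below every Ento median. After array medians were equalized, 85 genes were called lower and 18 higher. The mean level of 14 B-cell markers was 9.09 to 9.13 on the Ento arrays and 9.18 to 9.44 on the Ento+AZD arrays, and none of them was called. CD79A, a signalling chain of the B-cell receptor, stood at 11.5 ± 0.22 (SD, n = 3) under Ento and PAX5, the B-lineage factor, at 8.19 ± 0.20 (SD, n = 3). Markers of other cell types differed in level, but levels of different probes are not on 1 scale and no detection value was used. T and NK cell markers averaged 3.26 to 3.31 under Ento and 3.08 to 3.15 under Ento+AZD, myeloid markers 4.05 to 4.21 and 3.91 to 4.25, and stromal and epithelial markers 5.07 to 5.43 and 5.02 to 5.31, near the 5.29 to 5.35 and 5.21 to 5.25 of all symbols, with 0 of 10, 0 of 9 and 0 of 9 members called. In cultures measured in bulk, fewer cells that transcribe a gene and less RNA per cell cannot be told apart.

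LCK, a kinase of the SRC family, was downregulated on addition of AZD. LCK, which is best known as the kinase of the T-cell receptor, stood at 8.85, 8.81 and 8.91 under Ento and at 7.0, 7.22 and 7.52 under Ento+AZD. The groups were well apart, with a log2 change of -1.61 (SE 0.173, limma adjusted p = 0.0121). Of the 8 measured kinases of the family 2 were called lower, LCK among them, and 0 higher, beside 0.604% lower among all symbols. The list median was -0.23. The relatives LYN, BLK and FGR were not called. LYN, the main SRC family kinase of B cells, changed by 0.10 (SE 0.119, adjusted p = 0.79), BLK by 0.13 (adjusted p = 0.739) and FGR by -0.50 (adjusted p = 0.0883).

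HVCN1 had the smallest adjusted p of the comparison. It encodes the voltage-gated proton channel that carries protons out of the cell during the oxidative burst of B cells and phagocytes. HVCN1 expression was 6.61, 6.66 and 6.68 under Ento and 5.11, 5.06 and 5.44 under Ento+AZD, which gave a log2 change of -1.45 (SE 0.139, limma adjusted p = 0.0114). CYBB, the catalytic subunit of the NADPH oxidase whose activity the channel sustains, was downregulated as well. CYBB was 5.43, 5.25 and 5.32 under Ento and 4.06, 3.66 and 4.16 under Ento+AZD (-1.37, SE 0.225, adjusted p = 0.0211). Its levels were low, with means of 5.33 under Ento, 3.96 under Ento+AZD, 4.57 under DMSO and 4.19 under AZD alone. The further oxidase subunits CYBA, NCF1 and NCF4 were not called, with changes of 0.33, 0.31 and 0.36. UCP2, a carrier of the inner mitochondrial membrane, went the other way. It was 9.49, 9.67 and 9.61 under Ento and 10.9, 10.4 and 10.6 under Ento+AZD (1.05, SE 0.152, adjusted p = 0.0199). Of the 15 measured genes of the oxidative burst and redox defence, these 2 were lower and this 1 was higher, and the list median was -0.11 beside -0.06 for all symbols.

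MYB, a transcription factor of immature and dividing blood cells, was downregulated. MYB stood at 9.11, 9.34 and 8.73 under Ento and at 7.44, 7.78 and 7.50 under Ento+AZD, which gave a log2 change of -1.49 (SE 0.195, limma adjusted p = 0.0162). Its relatives MYBL1 (-0.98, adjusted p = 0.203) and MYBL2 (-0.71, adjusted p = 0.0763) were not called.

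Several of the strongest lower genes have no shared role. MNS1, a coiled-coil protein of cilia and of the sperm tail, stood at 7.91, 8.22 and 7.23 under Ento and at 5.70, 5.85 and 5.97 under Ento+AZD, which gave a log2 change of -1.94 (SE 0.24, limma adjusted p = 0.0162). NRG4, a neuregulin that acts as a ligand of the receptor ERBB4, stood at 8.30, 8.26 and 7.98 and at 6.18, 6.59 and 6.95 (-1.60, SE 0.209, adjusted p = 0.0162). For both genes the highest Ento+AZD array stayed more than 1 unit below the lowest Ento array. ALDH1L2, a mitochondrial enzyme of folate metabolism, changed by -1.82 (SE 0.201, adjusted p = 0.0121) and RERG, a small GTPase of the RAS superfamily, by -1.45 (SE 0.174, adjusted p = 0.0162). The largest fitted decrease was that of CYP26A1, the enzyme that degrades retinoic acid. CYP26A1 read 5.51, 5.59 and 4.16 under Ento and 2.60, 2.76 and 3.07 under Ento+AZD (-2.27, SE 0.357, adjusted p = 0.0199), so that its Ento arrays were 1.43 apart. Its Ento+AZD mean of 2.81 was below the mean of the T and NK cell markers on the same arrays, and without detection values the size of this change is uncertain. CHI3L2, a chitinase-like protein without enzyme activity, changed by -2.19 (SE 0.36, adjusted p = 0.0211), and GAS2L3, a linker of actin and microtubules, by -2.13 (SE 0.386, adjusted p = 0.027). OR7E14P changed by -2.19 (adjusted p = 0.0211), but it belongs to a family of olfactory receptor pseudogenes with near-identical copies and its value is uncertain. MFAP4, a glycoprotein of elastic fibres (-1.40, adjusted p = 0.0162), and CCDC141 (-1.61, adjusted p = 0.0162) had low levels, with means of 4.93 and 3.99 under Ento and 3.53 and 2.38 under Ento+AZD.

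**Figure D2:**
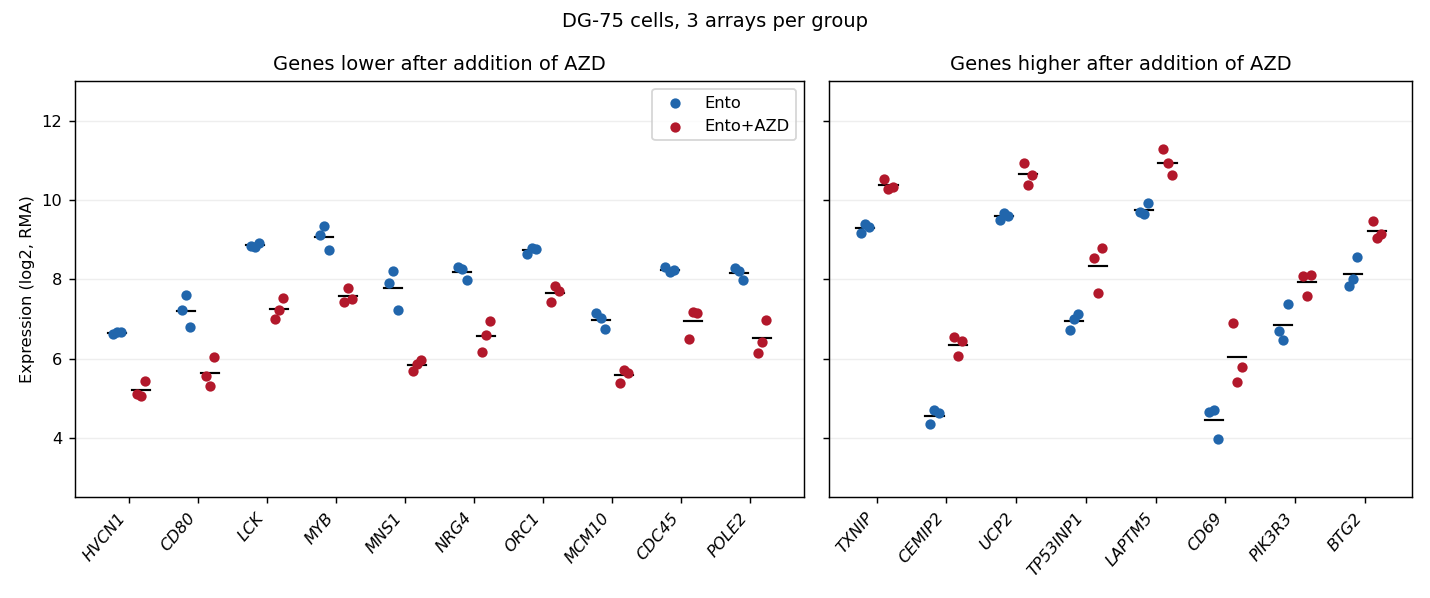
Log2 expression (vertical axis) of 10 lower and 8 higher genes on the 3 Ento and the 3 Ento+AZD arrays of DG-75. Points are arrays and black lines are group means, and the 2 groups do not overlap for any of the 18 genes.

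Of the 30 measured genes that prepare DNA replication origins, 9 were called lower (30%), beside 0.604% of all symbols. Before S phase the origin recognition complex and its loaders place the MCM helicase on DNA, and CDC45 and the GINS complex then join it to form the active helicase. None of the 30 was called higher, all 30 changes were below 0, and their median was -0.86. Among all 25161 symbols 15164 changes were below 0, and the median was -0.06. The 9 were ORC1, MCM4, MCM6, MCM10, CDC45, GINS1, GINS2, MTBP and WDHD1. ORC1, the ATP-binding subunit of the origin recognition complex, stood at 8.63, 8.80 and 8.76 under Ento and at 7.43, 7.83 and 7.71 under Ento+AZD (-1.08, SE 0.155, limma adjusted p = 0.0199). MCM10, which activates the helicase, stood at 7.15, 7.03 and 6.74 and at 5.38, 5.72 and 5.63 (-1.39, SE 0.196, adjusted p = 0.0199). CDC45 stood at 8.32, 8.18 and 8.23 and at 6.51, 7.18 and 7.16 (-1.30, SE 0.193, adjusted p = 0.0199). The groups were separate for each of the 3 genes. Over the list 28 of 30 members had every Ento+AZD array below every Ento array, beside 13.7% of all rows. The helicase subunits MCM2 (-0.83), MCM3 (-0.77), MCM5 (-0.89) and MCM7 (-0.85) had adjusted p values between 0.0203 and 0.0239 and missed the fold change threshold.

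E2F transcription factors bind promoters of many replication genes, and the promoters of 3 called origin genes are shown for their E2F-like letters. The 3 were picked by smallest adjusted p among the called origin genes that held a match, so that their matches were fixed by the choice. The promoter of LCK is shown beside them as a called lower gene outside the lists of division genes. The sequences run from 250 bases before to 50 bases after the RefSeq start site in GRCh38.p14. Capitals mark 4 E2F-like motifs on either strand, which are the run TTCCCGC, the run TTCGCGC, the run TTGCCGC and the run TTGGCGC, and matches on opposite strands can overlap. The ORC1 promoter lies at chr1:52404374-52404673 on the minus strand, that of MCM6 at chr2:135876394-135876693 on the minus strand, that of GINS1 at chr20:25407423-25407722 on the plus strand and that of LCK at chr1:32251015-32251314 on the plus strand.
ORC1: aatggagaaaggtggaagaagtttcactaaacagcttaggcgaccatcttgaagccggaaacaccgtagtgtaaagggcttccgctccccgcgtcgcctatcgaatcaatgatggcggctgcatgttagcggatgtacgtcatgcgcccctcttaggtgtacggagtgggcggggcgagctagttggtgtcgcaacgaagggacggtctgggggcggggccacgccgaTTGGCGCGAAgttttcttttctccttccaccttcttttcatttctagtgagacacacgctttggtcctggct
MCM6: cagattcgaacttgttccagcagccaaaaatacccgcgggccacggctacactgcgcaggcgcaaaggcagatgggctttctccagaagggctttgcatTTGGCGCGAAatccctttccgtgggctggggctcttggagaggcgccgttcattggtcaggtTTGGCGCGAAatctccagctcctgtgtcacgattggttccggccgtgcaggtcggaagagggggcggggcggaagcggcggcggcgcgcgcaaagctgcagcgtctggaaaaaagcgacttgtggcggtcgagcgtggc
GINS1: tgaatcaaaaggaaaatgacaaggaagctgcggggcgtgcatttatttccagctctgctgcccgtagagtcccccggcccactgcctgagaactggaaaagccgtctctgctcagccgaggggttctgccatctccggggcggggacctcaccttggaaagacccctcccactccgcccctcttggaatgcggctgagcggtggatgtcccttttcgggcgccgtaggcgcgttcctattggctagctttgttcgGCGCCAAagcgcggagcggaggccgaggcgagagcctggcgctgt
LCK: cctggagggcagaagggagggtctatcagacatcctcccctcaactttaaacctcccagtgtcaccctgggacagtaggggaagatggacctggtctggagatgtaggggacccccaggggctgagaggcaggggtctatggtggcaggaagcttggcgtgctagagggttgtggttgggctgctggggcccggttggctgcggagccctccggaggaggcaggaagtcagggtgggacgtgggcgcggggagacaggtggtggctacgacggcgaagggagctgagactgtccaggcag
ORC1 held 2 matches that overlap, MCM6 held 4 matches in 2 runs, GINS1 held 1 and LCK held 0. Promoters were found for 25 of the 30 genes of the origin list, and 15 of these 25 held a match, a share of 60%, beside 2795 of the 17249 tested symbols with a promoter (16.2%) and 3564 of 27305 promoters of the same length in the whole table (13.1%). Over 12 lists of replication, chromosome and division genes, 299 of 352 members had a promoter and 126 of them a match (42.1%). Of the 152 called lower symbols 113 had a promoter (74.3%), and 41 of these 113 held a match (36.3%). Outside the 12 lists 22 of 84 called lower genes with a promoter held one (26.2%), and 62, LCK among them, held none. A promoter was at hand for 68.6% of all tested symbols, and all of these shares describe only the symbols that had one. A match describes letters in a window and does not show that a factor binds there.

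Some replication fork and recombination genes were called lower as well. Of 32 measured fork genes 4 were called lower, none was called higher and the median was -0.79, with 30 of the 32 changes below 0. POLE2, a subunit of the leading-strand polymerase, stood at 8.28, 8.22 and 7.98 under Ento and at 6.15, 6.41 and 6.98 under Ento+AZD (-1.65, SE 0.254, limma adjusted p = 0.0199), and RFC3 (-1.06), DSCC1 (-1.19) and ATAD5 (-1.15), all parts of clamp loaders, were called as well. PCNA, the sliding clamp itself, changed by -0.76 (adjusted p = 0.0349) and did not reach the fold change threshold. In the list of recombination and Fanconi anaemia genes 7 of 36 were called lower, with a median of -0.84. They included the recombination mediator XRCC2 (-1.20), the helicase BLM (-1.13), the nuclease EXO1 (-1.34) and the paired Fanconi proteins FANCD2 (-1.23) and FANCI (-1.26). FANCD2 stood at 8.64, 8.88 and 8.58 under Ento and at 7.18, 7.42 and 7.80 under Ento+AZD (SE 0.209, adjusted p = 0.0239), with the groups apart. Nucleotide synthesis genes had a median of -0.51 with 0 of 32 called, although RRM1, the large subunit of ribonucleotide reductase, had a change of -0.87 (adjusted p = 0.0254) and TYMS, thymidylate synthase, one of -0.84 (adjusted p = 0.0286).

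Some regulators of the cell cycle and of mitosis were called lower, and the list medians were -0.66 for the E2F and RB families, -0.35 for the G1 genes and -0.88 for the G2/M genes. E2F2 (-1.05, limma adjusted p = 0.0246) and E2F8 (-1.58, adjusted p = 0.0286) were the called members among 18 genes of the E2F and RB families, and E2F1 (-0.95, adjusted p = 0.0286) and FOXM1 (-0.94, adjusted p = 0.027) fell short of the fold change threshold. RB1, the retinoblastoma protein, changed by 0.18 (adjusted p = 0.611). CDC25A, the phosphatase that activates CDK2, was the 1 gene called among 19 G1 cyclins, their kinases and CDK inhibitors. CDC25A stood at 6.86, 6.58 and 6.48 under Ento and at 4.72, 5.11 and 5.41 under Ento+AZD (-1.56, SE 0.261, adjusted p = 0.0228). The CDK inhibitors CDKN1A (0.26, adjusted p = 0.452) and CDKN1B (-0.10, adjusted p = 0.883) were not called. All 25 G2/M genes were below 0. CDK1, the mitotic kinase, stood at 9.68, 9.68 and 9.52 under Ento and at 8.02, 8.60 and 8.77 under Ento+AZD (-1.16, SE 0.198, adjusted p = 0.0243), and PLK4 (-1.23) and MELK (-1.16) were the other 2 called. PLK4 is the kinase that starts centriole duplication.

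Calls among structural genes of the dividing chromosome were spread over several lists. NDC80 (-1.12), CENPU (-1.15), CENPW (-1.10) and MIS18A (-1.17) were called lower among 42 centromere and kinetochore genes, which attach chromosomes to the spindle. Among 20 kinesin motors KIF20A (-1.38) and KIF2C (-1.13) were called, among 21 condensin and cohesin genes SMC2 (-1.03), NCAPG2 (-1.04) and CDCA5 (-1.02), and among 16 genes of chromatin assembly and DNA methylation CHAF1B (-1.11), a subunit of the histone chaperone CAF-1. Replication histones had a median of -0.41 over 61 genes with 1 called, H4C9 (-1.07), whose value is uncertain because histone genes of a class are near-identical. Over the 12 lists together 37 of 352 symbols were called lower (10.5%) and 0 higher, beside 0.604% lower among all symbols, and they made up 24.3% of the 152 lower symbols. In each of the 12 lists the mean of every Ento+AZD array was below that of every Ento array. The means of all symbols had the same order with a smaller gap, at 5.35, 5.29 and 5.29 under Ento and 5.25, 5.21 and 5.23 under Ento+AZD. Over the 352 genes the Ento arrays averaged 8.50, 8.44 and 8.29, and the Ento+AZD arrays averaged 7.66, 7.82 and 7.89. The counts moved with the arrays, since the origin list had 0 called members without Ento replicate 1, Ento replicate 2, Ento+AZD replicate 1 or Ento+AZD replicate 2, and 13 without Ento replicate 3. Its median stayed between -0.97 and -0.71 in every alternative.

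**Figure D3:**
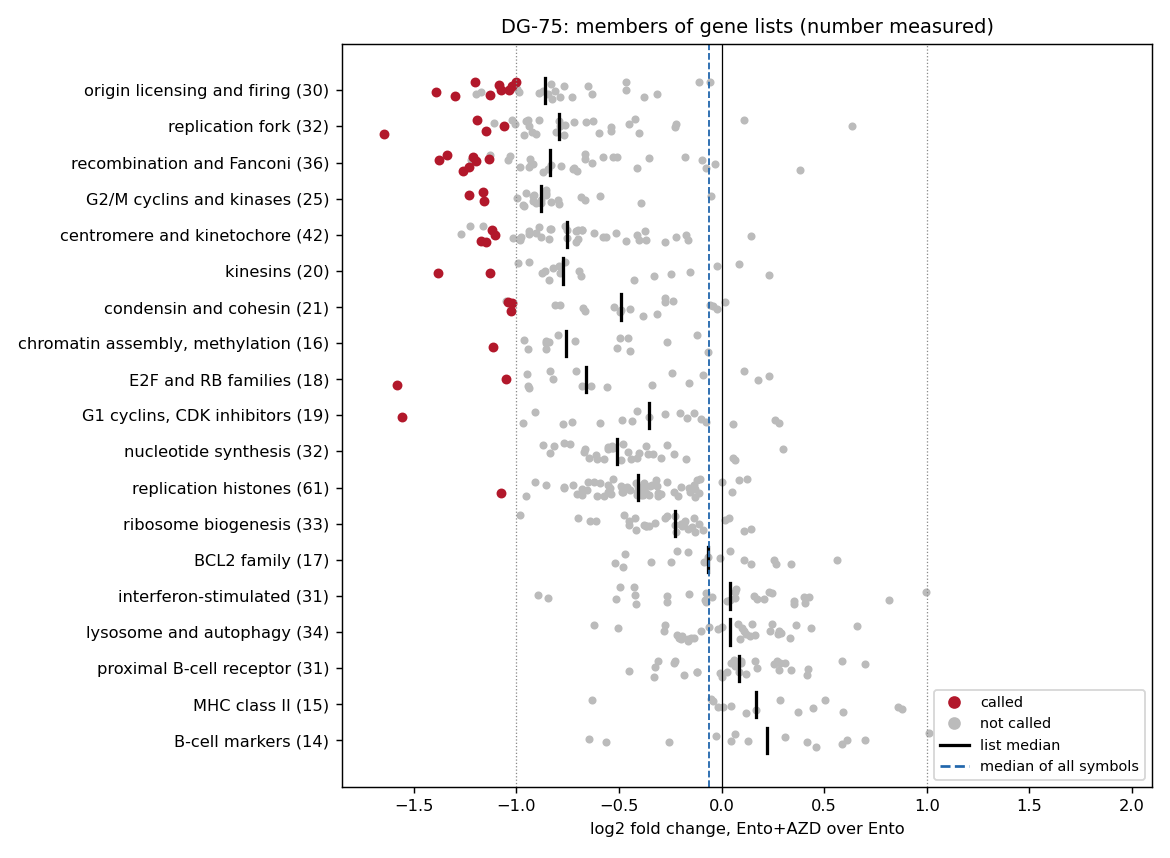
Log2 fold change of Ento+AZD over Ento in DG-75 (horizontal axis) for the measured members of 19 gene lists (rows, with the number measured), where each point is a gene, red points are called genes, black bars are list medians, the dashed line is the median of all symbols and dotted lines mark a 2-fold change. The 12 lists of replication and division have medians between -0.88 and -0.35, and the 7 other lists between -0.23 and 0.22.

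All 4 FAM72 copies, small genes of which FAM72A opposes the repair enzyme UNG in B cells, were called lower, with changes between -1.49 and -1.23. FAM72C stood at 10.4, 10.7 and 10.3 under Ento and at 8.87, 9.38 and 9.45 under Ento+AZD (-1.23, SE 0.155, limma adjusted p = 0.0162). The copies are near-identical, so that the 4 rows are not separate measurements and the value of each is uncertain. On the cell surface CD80, a ligand of CD28, stood at 7.24, 7.61 and 6.79 under Ento and at 5.56, 5.31 and 6.03 under Ento+AZD (-1.58, SE 0.236, adjusted p = 0.0199). TNFRSF17, the plasma cell receptor BCMA, changed by -1.20 (SE 0.261) with an adjusted p of 0.0481, the highest among the lower genes. CD80 and TNFRSF17 were the lower and CD69 the higher calls among 26 measured B-cell surface genes, whose median was 0.17.

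The 15 higher genes were fewer and more mixed in role. TXNIP, an alpha-arrestin that binds thioredoxin and restrains glucose uptake, was one of them. TXNIP stood at 9.17, 9.38 and 9.33 under Ento and at 10.5, 10.3 and 10.3 under Ento+AZD (1.09, SE 0.134, limma adjusted p = 0.0162). Its relative ARRDC3 changed by 0.84 (SE 0.131, adjusted p = 0.0199) and stayed under the fold change threshold. CEMIP2, a cell surface protein that degrades hyaluronan, had the largest increase. CEMIP2 stood at 4.34, 4.70 and 4.62 under Ento and at 6.55, 6.06 and 6.45 under Ento+AZD (1.8, SE 0.231, adjusted p = 0.0162). TP53INP1, a p53 target that promotes cell cycle arrest, stood at 6.72, 7.0 and 7.13 and at 8.54, 7.65 and 8.79 (1.38, SE 0.207, adjusted p = 0.0199), and BTG2, another antiproliferative p53 target, at 7.82, 8.0 and 8.56 and at 9.46, 9.04 and 9.14 (1.09, SE 0.201, adjusted p = 0.0278). For the last gene Ento replicate 3 lay 0.49 below the lowest Ento+AZD array, so that the groups were only just apart.

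Some genes with roles in immune cells were called higher, while others, such as LCK and CD80, were called lower. LAPTM5, a lysosomal protein that lowers the number of B-cell receptors on the surface, stood at 9.70, 9.65 and 9.92 under Ento and at 11.3, 10.9 and 10.6 under Ento+AZD (1.19, SE 0.179, limma adjusted p = 0.0199). CD69, an early activation antigen that retains lymphocytes in tissue, stood at 4.65, 4.72 and 3.97 and at 6.91, 5.41 and 5.78 (1.59, SE 0.261, adjusted p = 0.0211). The 3 Ento+AZD arrays of CD69 were 1.5 apart, with replicate 1 well above the others. FCMR, the Fc receptor for IgM, changed by 1.39 (SE 0.257, adjusted p = 0.0278), and PIK3R3, a regulatory subunit of phosphoinositide 3-kinase, by 1.08 (SE 0.187, adjusted p = 0.0246). SESN3, a FOXO target in the same list of 29 genes as PIK3R3, had a change of 1.29 with an adjusted p of 0.0515. MSH4, a meiotic recombination protein (1.51, adjusted p = 0.0362), TMEM234 (1.16, adjusted p = 0.0278), the antisense transcript PPP3CB-AS1 (1.14, adjusted p = 0.0258) and the microRNA gene MIR4762 (1.09, adjusted p = 0.0199) were higher too. MIR4762 stood at 1.67 ± 0.34 (SD, n = 3) under Ento and 2.76 ± 0.55 (SD, n = 3) under Ento+AZD, both near the low end of the scale. Whether the probes of PPP3CB-AS1 separate it from the overlapping gene was not tested.

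None of the 5 measured drug targets, the 17 genes of P-TEFb and its regulators or the 13 genes of the MYC network was called. BRD2 changed by 0.27 (SE 0.118, limma adjusted p = 0.312), BRD3 by 0.11 (adjusted p = 0.829) and SYK by 0.26 (adjusted p = 0.454). HEXIM1, the inhibitor of P-TEFb that often rises under BET inhibition, stood at 7.07, 7.19 and 7.24 under Ento and at 8.29, 7.54 and 8.20 under Ento+AZD. Its groups were apart, and the change of 0.84 (SE 0.167, adjusted p = 0.0348) was below 2-fold. MYC stood at 10.0 ± 0.12 (SD, n = 3) under Ento and 9.85 ± 0.12 (SD, n = 3) after the addition, which is a log2 change of -0.16 (SE 0.121, adjusted p = 0.607). MXD4, which competes with MYC for its partner MAX, changed by 0.96 (SE 0.147, adjusted p = 0.0199) and was the member of the network nearest to a call.

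No member was called in the lists of proximal B-cell receptor signalling (31 measured, median 0.08), MHC class II (15, median 0.17), the BCL2 family (17, median -0.07), ribosome biogenesis (33, median -0.23), lysosome and autophagy (34, median 0.04) and interferon-stimulated genes (31, median 0.04). Within MHC class II, HLA-DMB (0.88, adjusted p = 0.0246), HLA-DOB (0.86, adjusted p = 0.0211) and HLA-DQB1 (0.59, adjusted p = 0.0409) were higher at an adjusted p under 0.05 in limma without reaching 2-fold. Interferon-stimulated genes varied more between replicates than between the groups. Their mean level was 6.17, 5.20 and 5.78 on the Ento arrays and 6.35, 4.88 and 5.92 on the Ento+AZD arrays, with replicate 2 the lowest in both. The B-cell surface gene MS4A1, which encodes CD20, had a change of 1.01 (SE 0.262, adjusted p = 0.086) and was not called.

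The same addition of AZD was made without Ento, as AZD against DMSO in DG-75, and this comparison shares no array with Ento+AZD against Ento. It gave 42 lower (0.164%) and 4 higher rows (0.0156%), and no call was left when any 1 of its 6 arrays was omitted. The 153 genes lowered on top of Ento were all below 0 under AZD alone, against 60.5% of all rows, with a median of -0.99 there and -1.18 on top of Ento. Of these 153, 33 were called lower under AZD alone (21.6%), which is 78.6% of the 42. HVCN1 (-1.22), LCK (-1.29), MYB (-1.28), MNS1 (-1.65), CD80 (-1.60), ORC1 (-1.06), FANCD2 (-1.19) and the FAM72 copies were among the 33. Among the 15 higher genes 14 were above 0 under AZD alone and TXNIP (1.05), TP53INP1 (1.22) and PIK3R3 (1.12) were called, 3 of 4 higher calls. Across the 25575 rows, which are not independent and share arrays within each comparison, the 2 sets of changes correlated at r = 0.645 (rho = 0.532). The 12 lists of division genes averaged 8.50, 8.33 and 8.43 on the DMSO arrays and 7.64, 8.04 and 8.0 on the AZD arrays, so that these groups were apart too. The medians of whole arrays were also apart by a smaller gap, at 5.053 to 5.137 for DMSO and 5.008 to 5.048 for AZD.

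The difference between both effects of AZD was tested directly, as the change with Ento minus the change without it. limma called 0 genes (0%), and 672 rows had an unadjusted p under 0.05. Some named genes had unlike values side by side. CYBB changed by -1.37 on top of Ento and by -0.39 (adjusted p = 0.498) under AZD alone, a difference of -0.98 (SE 0.319, unadjusted p = 0.0103). CCDC141 changed by -1.61 and by -0.06, a difference of -1.55 (SE 0.287, unadjusted p = 0.000213), with means of 3.0 under DMSO, 3.99 under Ento, 2.93 under AZD and 2.38 under Ento+AZD. FCMR changed by 1.39 and by 0.42 and MCM10 by -1.39 and by -0.71. None of these differences passed adjustment over all rows, where the adjusted p was 1. The median SE of such a difference was 0.247, larger than the 0.175 of a single change.

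**Figure D4:**
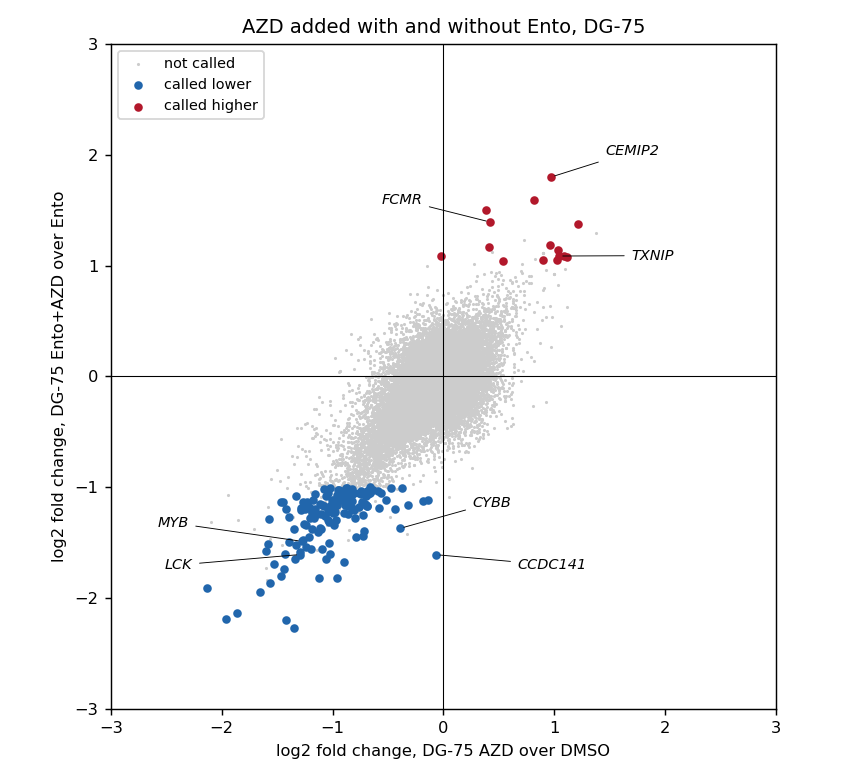
Log2 fold change in DG-75 of AZD over DMSO (horizontal axis) and of Ento+AZD over Ento (vertical axis) for all 25575 rows, where each point is a row and colours mark the 153 lower and 15 higher rows called for Ento+AZD over Ento. The lower rows all lie left of 0 on the horizontal axis, and CCDC141, at -0.06, lies near 0.

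In SU-DHL-4, the second line, Ento+AZD against Ento gave 18 lower (0.0704%) and 3 higher rows (0.0117%). No call was left without the replicate block or when any 1 array other than Ento replicate 2 was omitted, and 23 genes, all lower, were called without that array. The 153 lower genes of DG-75 had a median of -0.62 there, and 127 of them (83%) were below 0, beside 53.9% of all rows. Of the 18 lower SU-DHL-4 calls 6 were called lower in DG-75 (33.3%), which is 3.92% of the 153, and MYB (-2.08), MNS1 (-1.55), CDC25A (-1.36) and CHI3L2 (-1.18) were among them. The higher genes of DG-75 had a median of 0.39, with 11 of 15 above 0 and none called. The origin list, with 30 genes, had a median of -0.79 in SU-DHL-4 beside -0.86 in DG-75, and the G2/M list had -0.89 beside -0.88. For all rows the changes in both lines correlated at r = 0.314 (rho = 0.233), and at 0.506 over the 12787 rows of higher mean expression.

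The response of DG-75 minus that of SU-DHL-4 was called for 7 genes (0.0274%) in a fit of all 24 arrays, 6 with a lower and 1 with a higher change in DG-75. The lower ones included CYP26A1, NRG4, ALDH1L2, FOXP2 and SPECC1. NRG4 changed by -1.60 in DG-75 and by 0.60 in SU-DHL-4, a difference of -2.20 (SE 0.293, limma adjusted p = 0.0156). In SU-DHL-4 the NRG4 level under Ento was 1.78 ± 0.12 (SD, n = 3), near the lowest values of the table, against 8.18 ± 0.17 (SD, n = 3) in DG-75. CYP26A1 was low there as well, at 2.12 ± 0.33 (SD, n = 3). The gene with the higher change in DG-75 was DUSP1, a phosphatase that switches off MAP kinases, which changed by 0.69 in DG-75 (adjusted p = 0.047) and by -0.82 in SU-DHL-4 (adjusted p = 0.131). FOXP2, SPECC1 and DUSP1 are named here after their values were seen. The count was 0 without DG-75 Ento replicate 1, DG-75 Ento replicate 2, DG-75 Ento+AZD replicate 1, SU-DHL-4 Ento replicate 1 or the first 2 SU-DHL-4 Ento+AZD arrays, it was 2 without SU-DHL-4 Ento replicate 2 and 1 without the third SU-DHL-4 array of either group, and it was 18 without DG-75 Ento replicate 3. Without DG-75 Ento+AZD replicate 2 there were 9 calls, of which 2 were lower and 7 higher in DG-75, and without DG-75 Ento+AZD replicate 3 all 9 calls were lower. Omission of all arrays of replicate number 2 gave 9 calls, all of them higher, so that the balance of directions depended on the arrays.

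**Figure D5:**
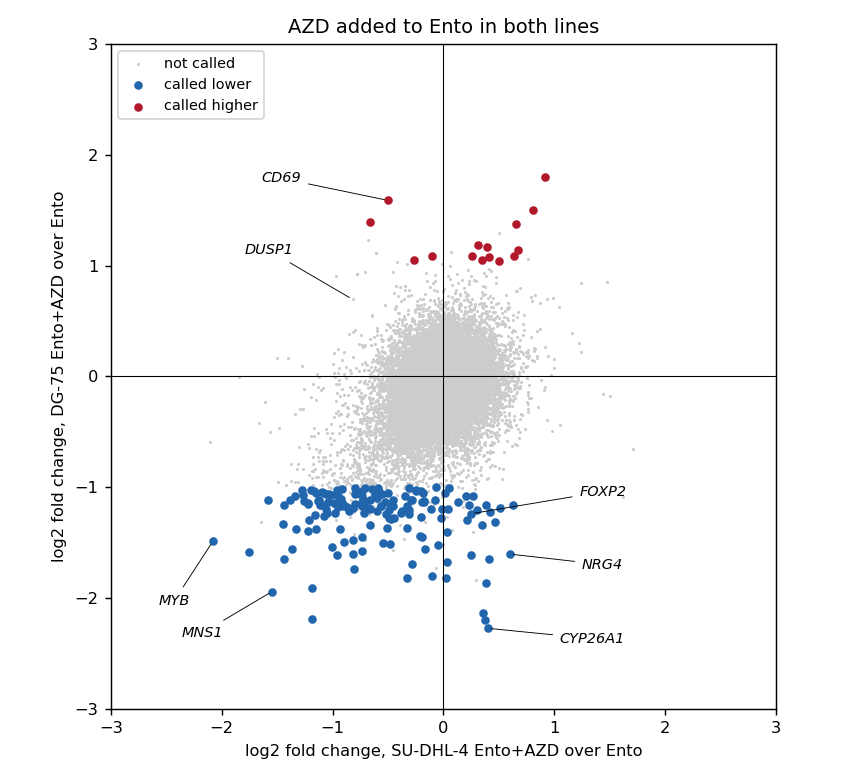
Log2 fold change of Ento+AZD over Ento in SU-DHL-4 (horizontal axis) and in DG-75 (vertical axis) for all 25575 rows, where each point is a row and colours mark the 153 lower and 15 higher rows called in DG-75. Of the lower rows 127 lie left of 0 on the horizontal axis, while NRG4 (0.60) and CYP26A1 (0.40) lie to the right.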

How the data were processed

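RNA from DG-75 and SU-DHL-4 cells was hybridised to Clariom D human arrays. The authors deposited log2 expression values, for which their methods name RMA normalization and mapping of probes to genes with limma and affycoretools. Versions, genome build and probe identifiers are not given in the sources used here, so that no detection value or probe position was used.

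Group and replicate number were taken from the sample labels. The series calls the arrays biological triplicates. Changes were computed with limma 3.58.1 under R 4.3.3 (functions lmFit, contrasts.fit and eBayes) on the 12 arrays of 1 line, with the 4 treatments and the replicate number as batch term, and p-values were Benjamini-Hochberg adjusted over all 25575 rows. Called rows had an adjusted p under 0.05 and changed by more than 1 on the log2 scale in either direction. The difference between lines was fitted on all 24 arrays. The calculation was tested on simulated data.

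Genes named are called genes with the smallest adjusted p (12 per direction) or largest change (5 per direction) and the same sign in all 3 same-numbered pairs, and members of gene lists, each symbol by its row of highest mean. The comparison and the lists were chosen with earlier results of these data known. Not every gene that this rule selects is reported here. Lists are described by counts and medians, without a set test. Promoters are from RefSeq (GRCh38.p14), matched by symbol. Of 25161 symbols 24636 were current names, 331 older synonyms and 194 unmatched. Alternatives were no replicate term, other array sets, a filter on low rows, 2 further scalings, another prior, other call rules, 1 row per symbol and omission of arrays. With 3 arrays per group, their number limits the precision.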

Additional observations from a re-analysis of the deposited data

Results flagged for a closer look

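Between the lines, 7 genes changed unequally on addition of AZD to Ento by the test of the difference itself (limma on 24 arrays, adjusted p between 0.0156 and 0.044). Among those reported here, the change in DG-75 minus that in SU-DHL-4 was -2.67 for CYP26A1, -2.20 for NRG4, -1.84 for ALDH1L2, -1.49 for FOXP2, -1.39 for SPECC1 and 1.51 for DUSP1. FOXP2, a forkhead transcription factor, changed by -1.24 in DG-75 (adjusted p = 0.0199) and by 0.25 in SU-DHL-4 (adjusted p = 0.717). SPECC1, a cytoskeletal crosslinker, changed by -1.16 (adjusted p = 0.0199) and by 0.23 (adjusted p = 0.70). In SU-DHL-4 under Ento, NRG4 stood at 1.78, CYP26A1 at 2.12, ALDH1L2 at 3.71 and SPECC1 at 4.38, while FOXP2 stood at 5.71 and DUSP1 at 6.72. DUSP1 had an SD of 1.30 over the 3 SU-DHL-4 Ento arrays. The part of these low levels in the differences was not tested. The dependence of these calls on single arrays is given with the comparison of the lines.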

How the results depend on the processing

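The 168 calls on addition of AZD to Ento in DG-75 became 0 when only the 6 compared arrays were fitted, 103 with equal array medians, 4 with treat, limma's test against a minimal fold change, here 1.2, and 424 with no fold change minimum, and ranged from 0 to 389 with arrays or replicate numbers left out (0, 4 and 65 without replicate number 1, 2 and 3). Higher genes were 8.93% of the calls, 21% after quantile normalization (124 calls) and 17.5% with equal medians. AZD against DMSO, with 46 calls, gave 122 with all 24 arrays in the fit, 12 with only its own arrays, 98 without rows of low expression, 2 after quantile normalization, 0 with equal medians, 155 with a trended prior, 75 with no fold change minimum and 0 with treat, and 0 to 0 with arrays left out. The 21 calls of SU-DHL-4 became 0 with no replicate term, 90 with all 24 arrays, 0 with only its own arrays and 55 without rows of low expression. They were 0 after quantile normalization, 16 with equal medians and 107 with a trended prior. With no fold change minimum there were 26, with treat 0, and with arrays left out 0 to 23. The 7 differences between lines became 3 with no replicate term, 0 with only the compared arrays, 4 without low rows, 4 after quantile normalization, 2 with equal medians, 18 with a trended prior, 1 with treat, and 0 to 18 with arrays left out. The test of AZD with against without Ento gave 0 calls in every setting. Where arrays were left out the smaller number of arrays accompanies every count, and other causes were not tested. Of 541 values of 29 genes selected for naming under the alternatives, 296 kept the call, 245 lost it and 0 changed direction.

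Over all rows, same-numbered Ento and Ento+AZD arrays of DG-75 did not deviate together from their group means (r = 0.0367, -0.104 and -0.355 for numbers 1, 2 and 3). The interferon-stimulated genes, in contrast, had the same order of replicate numbers in both groups. With so few arrays these values do not decide whether the numbers pair the arrays. Without the replicate block DG-75 Ento+AZD against Ento gave 172 calls, and AZD against DMSO gave 39.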
